A study of Mus musculus with 8 samples.

Results

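DNA replication and S phase genes were compared between mammary glands of mice with both copies and mice with 1 copy of Sox9 open to deletion. The group holds 51 genes of the G1/S transition, of replication and of nucleotide supply, chosen by name and each read through its brightest probe set with a single gene symbol, and all 51 were measured among the 19938 genes tested. The mice were untreated virgin females of 5 weeks, from a C57BL/6 X FVB cross. All 8 carried MMTV-Cre, a recombinase gene driven by the mouse mammary tumour virus promoter, and at least 1 floxed Sox9 copy. In 4 of them both copies were floxed (flox/flox, labelled MMTV-CRE;SOX9F/F), and the other 4 kept a wild-type copy (flox/+, MMTV-CRE;SOX9+/F). The flox/+ controls therefore also carry the recombinase and an allele that it can delete. MMTV-Cre acts mainly in mammary epithelium, whereas the tissue was a piece of the fourth gland near its lymph nodes and so held fat, stroma, vessels and immune cells as well. RNA of each gland was read on a separate array (Affymetrix Gene 1.0 ST), and 4 arrays per genotype limit the precision.

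Replication starts in G1, when the origin recognition complex, Cdc6 and Cdt1 load the MCM helicase onto DNA. At the entry into S phase cyclin E with its kinase frees E2F factors from the pocket proteins, and E2F factors switch on most of the genes described here. The helicase is then activated by Cdc45 and the GINS complex, primase and the polymerases copy the strands behind it, the clamp PCNA holds the polymerases on DNA, and ribonucleotide reductase and thymidylate synthase supply the building blocks. In the gland at puberty the dividing epithelial cells lie mostly in the terminal end buds, the growing tips of the ducts. RNA of most of these genes is made mainly at the entry into S phase. In pieces of whole tissue fewer such cells and less RNA per cell cannot be told apart.

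Replication genes lay slightly lower in the flox/flox glands, but none of the 51 passed the test. Differences were negative for 46 of the 51 (90.2%), against 52.6% of all genes tested. The median log2 difference, flox/flox minus flox/+, was -0.13, against -0.0066 over all genes. The test was limma's moderated test with Benjamini-Hochberg adjustment over all genes, in which an adjusted p under 0.05 counts as a call. It called 8 genes in all (0.0401%), 2 of them lower (0.01%), and 0 replication genes, whose smallest adjusted p was 0.238, for Rfc2. At an unadjusted limma p under 0.05 there were 12 replication genes, 23.5% of the group, all lower, against 5.46% of all genes tested that were lower and 4.81% that were higher. These were Rfc2, Pole, Mcm5, E2f8, Mcm6, Rrm1, E2f2, Prim1, Mcm10, Rrm2, Chaf1b and Uhrf1. In 4 of them (Rfc2, Pole, Mcm5 and Prim1), 7.84% of the group, every flox/flox value lay under every flox/+ value, against 3.16% of all genes. The reverse was seen in 0 members and 2.74% of all genes. The members were chosen with earlier results of these glands known, so these shares describe them and are no test. The count of 12 depended on the scaling and on several glands. With the values as deposited, without the quantile normalization used here, it was 7, against 3.51% of all genes tested, and the 2 genes without overlap were E2f2 and Rfc2, against 2.01% of all genes. It was 6 without flox/+ replicate 1 (5% of all genes), 5 without flox/+ replicate 3 (4.28%), 5 without flox/flox replicate 1 (5.42%) and 7 without flox/flox replicate 2 (4.4%). The count of negative members stayed between 40 and 47 of 51 when any 1 gland was left out. The count without overlap, 4 with all glands, was 7 without flox/+ replicate 2, 10 without flox/+ replicate 4, 8 without flox/flox replicate 3 and 11 without flox/flox replicate 4, against 5.37%, 5.3%, 5.89% and 4.62% of all genes. The 8 genes called in all became 4 without flox/+ replicate 1 or flox/flox replicate 1, 2 without replicate 4 of either genotype and 21 without flox/flox replicate 3.

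Sox9 itself read 424, 448, 401 and 366 in the flox/+ glands and 298, 356, 287 and 351 in the flox/flox glands, with no overlap and a log2 difference of -0.33 ± 0.09 (limma's standard error, SE; adjusted p = 0.256). Median intensity per array, before any scaling here, ran from 159 to 178. Among all genes at an unadjusted p under 0.05, 1089 were lower and 960 higher after quantile normalization, but 700 and 1240 with the values as deposited and 772 and 1167 with median centring, so the balance of directions over all genes turns with the scaling. The replication genes kept 45 of 51 negative in both of these settings. Flox/+ replicate 2 stood apart by its lymphocyte genes: the summed intensity of 6 B cell markers was 3708 there and 549 to 658 in the other 7. Without that gland the median of the replication genes was -0.13, and 11 were lower at an unadjusted p under 0.05 (5.21% of all genes).

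**Figure D1:**
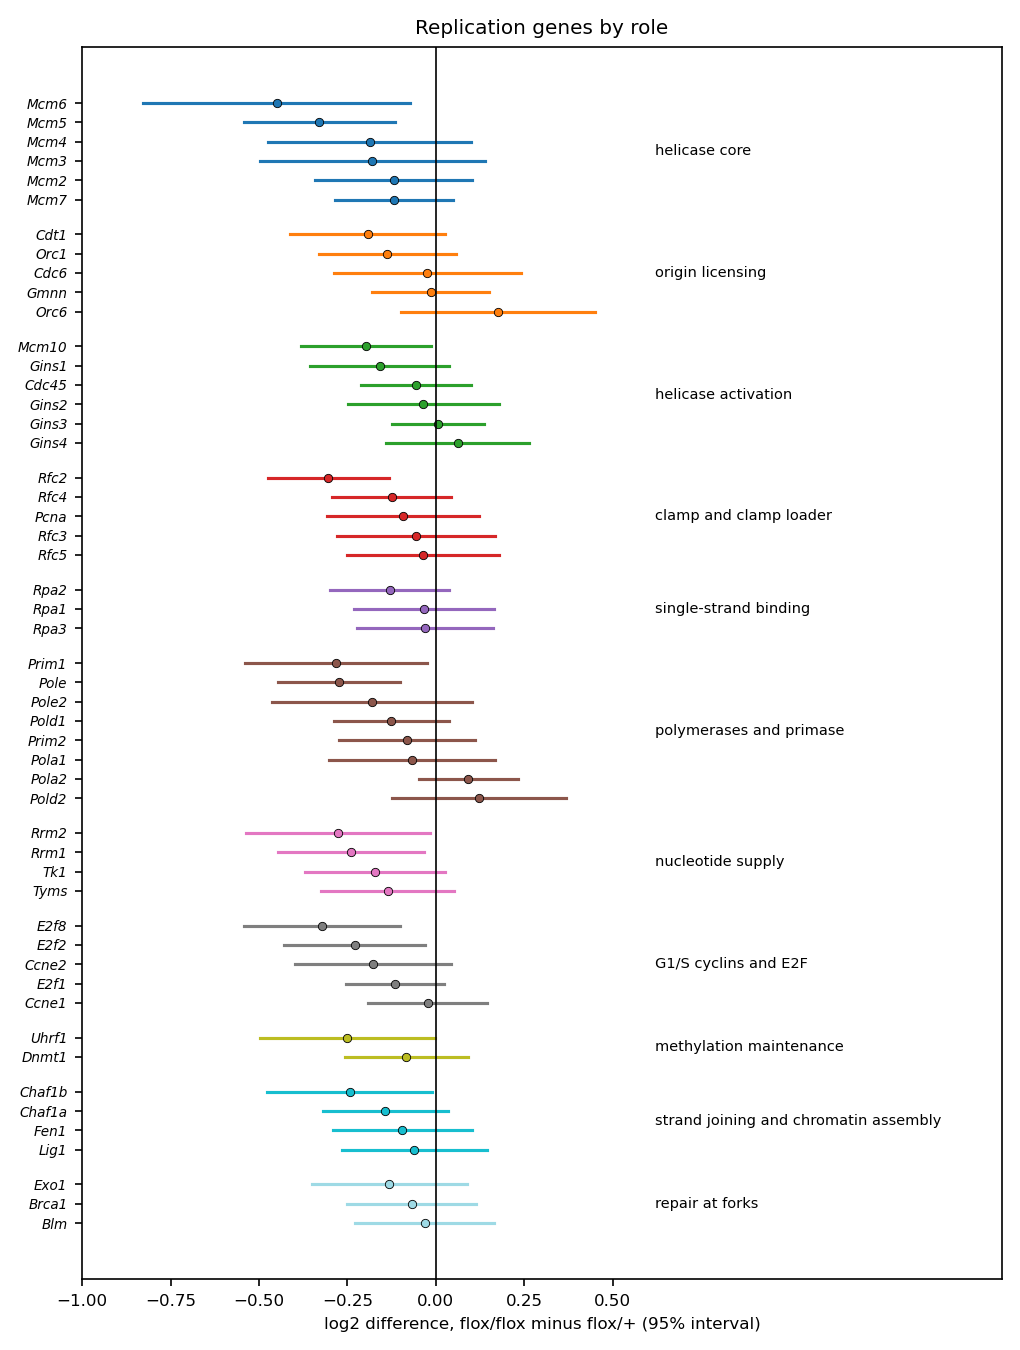
Log2 differences (flox/flox minus flox/+, x axis) of the 51 replication genes, grouped by role, with points for the estimate and lines for limma's 95% interval from 4 glands per genotype. Points of 46 genes lie left of 0, the lowest at -0.45 (Mcm6) and the highest at 0.17 (Orc6), and most intervals cross 0.

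The promoters of these genes are known for E2F sites, and the sequences show which letters stand there. Promoter windows of 300 bases, from 250 before to 50 after an annotated transcript start, were found for 41 of the 51 genes in RefSeq (build GRCm38.p6). Mcm4, Gmnn, Gins1, Gins2, Gins4, Rfc2, Pole, Prim2, Ccne2 and Exo1 were not matched. The strings TTTCGCGC, TTTGGCGC and TTCCCGCC, forms of the E2F consensus, were searched on both strands together with the CCAAT box (CCAAT) and the cell cycle homology region (CHR, TTTGAA). A gene with several annotated starts (7 of the 41) counted as a match if any of its windows held the string. At least 1 E2F string stood in 18 of the 41 (43.9%), against 4.75% of the 15614 array genes with such a window and 3.39% of all 27025 genes in the table. The separate shares were 19.5% against 0.519% of array genes for TTTCGCGC, 19.5% against 0.833% for TTTGGCGC and 17.1% against 3.53% for TTCCCGCC. In all genes of the table these strings stood in 0.374%, 0.585% and 2.52%. CCAAT stood in 27 of the 41 (65.9%, against 41.7% of array genes and 41.1% of all) and TTTGAA in 8 (19.5%, against 17.3% and 20.2%). The median log2 difference was -0.16 for the 18 genes with an E2F string and -0.07 for the 23 without, a description with no test.

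Of the 12 genes with an unadjusted p under 0.05, 10 had a window and 6 held an E2F string. Mcm10, Rrm2, E2f8 and Chaf1b had a window without one. The windows below show the 6 with an E2F string, to set where the strings lie. Orc6 and Pold2 follow, the members with the most positive differences among those with a window. The windows were thus picked by their strings and do not compare lower with higher genes. E2f2, Uhrf1 and Pold2 have 2 windows each. A window with an E2F string was printed where there was one, and otherwise the first listed. Capitals mark the searched strings on either strand, read in the direction of the gene.
Mcm5, chr8:75109259-75109558, plus strand: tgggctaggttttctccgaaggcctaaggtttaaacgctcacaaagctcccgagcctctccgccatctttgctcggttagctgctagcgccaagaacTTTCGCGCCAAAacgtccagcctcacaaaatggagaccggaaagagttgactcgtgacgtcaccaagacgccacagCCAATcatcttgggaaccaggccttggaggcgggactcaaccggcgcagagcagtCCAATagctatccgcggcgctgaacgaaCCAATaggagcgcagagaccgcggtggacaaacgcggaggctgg
Mcm6, chr1:128359656-128359955, minus strand: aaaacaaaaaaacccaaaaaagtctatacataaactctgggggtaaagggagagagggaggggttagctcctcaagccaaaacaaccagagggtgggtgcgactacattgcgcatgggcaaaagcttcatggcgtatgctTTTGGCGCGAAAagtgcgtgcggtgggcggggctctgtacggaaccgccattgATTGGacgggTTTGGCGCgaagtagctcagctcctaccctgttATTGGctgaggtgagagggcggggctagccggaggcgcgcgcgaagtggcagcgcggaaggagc
Prim1, chr10:128014965-128015264, plus strand: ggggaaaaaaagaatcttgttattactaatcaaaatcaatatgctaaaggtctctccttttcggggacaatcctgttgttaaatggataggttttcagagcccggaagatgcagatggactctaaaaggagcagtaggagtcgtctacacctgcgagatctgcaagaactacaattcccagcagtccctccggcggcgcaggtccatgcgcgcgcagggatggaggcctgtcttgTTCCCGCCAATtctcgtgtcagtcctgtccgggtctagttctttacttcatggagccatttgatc
Rrm1, chr7:102441445-102441744, plus strand: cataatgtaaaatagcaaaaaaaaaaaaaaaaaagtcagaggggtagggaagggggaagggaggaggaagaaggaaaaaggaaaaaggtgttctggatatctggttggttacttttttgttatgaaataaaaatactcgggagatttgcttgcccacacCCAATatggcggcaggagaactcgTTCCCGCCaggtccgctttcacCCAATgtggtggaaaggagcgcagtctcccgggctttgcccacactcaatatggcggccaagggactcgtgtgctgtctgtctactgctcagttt
E2f2, chr4:136172024-136172323, plus strand: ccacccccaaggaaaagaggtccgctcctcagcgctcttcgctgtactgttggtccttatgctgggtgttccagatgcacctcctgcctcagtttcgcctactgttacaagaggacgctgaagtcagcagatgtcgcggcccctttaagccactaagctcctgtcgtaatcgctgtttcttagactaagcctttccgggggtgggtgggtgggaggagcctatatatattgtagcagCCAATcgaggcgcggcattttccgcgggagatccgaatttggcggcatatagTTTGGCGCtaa
Uhrf1, chr17:56303087-56303386, plus strand: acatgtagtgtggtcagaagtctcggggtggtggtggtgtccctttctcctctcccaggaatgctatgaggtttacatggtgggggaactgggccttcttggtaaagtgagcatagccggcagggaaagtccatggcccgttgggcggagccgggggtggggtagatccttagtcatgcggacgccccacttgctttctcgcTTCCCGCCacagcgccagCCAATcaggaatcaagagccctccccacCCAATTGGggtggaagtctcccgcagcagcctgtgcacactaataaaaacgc
Orc6, chr8:85299382-85299681, plus strand: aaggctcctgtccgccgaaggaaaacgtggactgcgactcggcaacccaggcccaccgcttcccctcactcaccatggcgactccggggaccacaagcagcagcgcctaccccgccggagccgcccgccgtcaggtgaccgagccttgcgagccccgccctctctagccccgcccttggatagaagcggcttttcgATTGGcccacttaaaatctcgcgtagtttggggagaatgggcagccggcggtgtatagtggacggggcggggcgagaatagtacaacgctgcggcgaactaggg
Pold2, chr11:5878207-5878506, minus strand: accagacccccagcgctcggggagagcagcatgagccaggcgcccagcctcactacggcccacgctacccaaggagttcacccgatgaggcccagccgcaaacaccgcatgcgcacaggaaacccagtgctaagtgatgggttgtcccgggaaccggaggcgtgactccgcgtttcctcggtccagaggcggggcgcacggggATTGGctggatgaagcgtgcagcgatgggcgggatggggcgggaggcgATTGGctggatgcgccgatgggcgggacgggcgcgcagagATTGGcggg

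Mcm5 and Mcm6, the helicase genes with the lowest differences, each hold TTTCGCGC and TTTGGCGC overlapping on opposite strands, at bases -153 to -142 in Mcm5 and -110 to -99 in Mcm6, counted from the transcript start. Mcm6 has another TTTGGCGC at -47 to -40. The E2F string of Prim1 (-15 to -8) overlaps its CCAAT box, while those of Rrm1 (-67 to -60) and Uhrf1 (-48 to -41) stand apart from theirs. In E2f2 the string lies after the start, at 40 to 47. The windows of Orc6 and Pold2 hold CCAAT boxes but none of the 3 E2F strings. A match is a run of letters and not a shown binding site, and the absence of these letters says nothing about the factor.

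Licensing proteins load the helicase, and their genes showed little shared direction. Of the 5 genes 4 were negative, the median was -0.02 and 0 had an unadjusted p under 0.05. Cdt1, which brings the helicase to origins, read 185, 162, 154 and 172 in the flox/+ glands and 121, 142, 174 and 147 in the flox/flox glands. Its log2 difference was -0.19 ± 0.10, with flox/flox replicate 1 the lowest gland and flox/flox replicate 3 within the control range. The origin recognition subunit Orc6 had the most positive difference of the 51, 0.17 ± 0.12 (95% interval -0.10 to 0.45), and read 399, 290.3, 327 and 445 in the flox/+ glands and 359, 449, 407 and 425 in the flox/flox glands. Here the low glands were flox/+ replicates 2 and 3, and the genotypes overlapped. Another origin subunit, Orc1, was at -0.14 ± 0.09, the helicase loader Cdc6 at -0.02 ± 0.12 and the Cdt1 inhibitor geminin (Gmnn) at -0.01 ± 0.07. For Cdc6 and Gmnn the sign changed when some glands were left out.

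All 6 genes of the helicase core, the ring that unwinds DNA, had negative differences, with a median of -0.18. Mcm6 had the lowest difference of all 51 genes and read 459, 419, 453 and 388 in the flox/+ glands and 210.1, 281, 372 and 416 in the flox/flox glands. Its mean was 429.6 ± 33.1 against 319.6 ± 92.2 (SD, n = 4 per genotype, flox/+ first), a log2 difference of -0.45 ± 0.17 or 73.2% of the control level on the log2(intensity + 16) scale (95% interval -0.83 to -0.07, adjusted p = 0.406). Flox/flox replicates 1 and 2 were far under all controls, whereas flox/flox replicate 4 lay above flox/+ replicate 4. Mcm5, a subunit at the gate of the ring, read 312, 280.4, 317 and 282 in the flox/+ glands and 204, 208, 256 and 272 in the flox/flox glands. The genotypes did not overlap for Mcm5, and its difference was -0.33 ± 0.10 (95% interval -0.54 to -0.11, adjusted p = 0.278).

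The other helicase genes shared the low values of flox/flox replicates 1 and 2 but overlapped widely. Mcm4 read 315, 326, 327 and 237 in the flox/+ glands and 223, 227, 297 and 306 in the flox/flox glands, a difference of -0.19 ± 0.13. Its flox/+ replicate 4 stood apart from the other controls, near the low flox/flox glands. Mcm7 read 345, 363, 370.1 and 366 in the flox/+ glands and 314, 302, 337 and 375 in the flox/flox glands, a difference of -0.12 ± 0.08 in which flox/flox replicate 4 was the highest of all 8 glands. Mcm2 was at -0.12 ± 0.10 and Mcm3 at -0.18 ± 0.14.

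Genes that activate the helicase were nearly level between the genotypes, with a median of -0.05 over 6 and 4 negative. Mcm10, which helps the loaded helicase to start, read 122, 151, 144 and 129 in the flox/+ glands and 104, 119, 127 and 116 in the flox/flox glands. This made a difference of -0.20 ± 0.08 (adjusted p = 0.457), with flox/flox replicate 3 above flox/+ replicate 1. The helicase cofactor Cdc45 read 298, 306, 318 and 309 in the flox/+ glands and 291, 267, 324 and 302 in the flox/flox glands, a difference of -0.06 ± 0.07 (95% interval -0.21 to 0.10). Among the GINS subunits, Gins1 was at -0.16 ± 0.09, Gins2 at -0.04 ± 0.10, Gins3 at 0.01 ± 0.06 and Gins4 at 0.06 ± 0.09. Gins2 and Gins3 changed sign with some glands left out.

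The clamp loader places the clamp on DNA, and 1 of its subunits had the smallest p of the whole group. Rfc2 read 305, 367, 348 and 344 in the flox/+ glands and 247, 293, 270.4 and 281 in the flox/flox glands. All flox/flox glands lay under all controls, with means of 341 ± 25.7 against 273 ± 19.4 (SD, n = 4), a difference of -0.30 ± 0.08 and an unadjusted limma p of 0.00245 that became 0.238 after adjustment. Its partners in the same complex were nearer 0: Rfc4 was at -0.13 ± 0.08, Rfc3 at -0.06 ± 0.10 and Rfc5 at -0.04 ± 0.10, the last with a sign that changed when some glands were left out. The clamp gene Pcna read 825, 822, 909.9 and 698 in the flox/+ glands and 685, 717, 778 and 867 in the flox/flox glands, with a difference of -0.09 ± 0.10 (95% interval -0.31 to 0.12) and overlapping genotypes. A second probe set of Pcna was at -0.09.

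Replication protein A coats the exposed strand, and its 3 genes had a median of -0.03. Rpa2 read 217, 188, 222 and 212 in the flox/+ glands and 174, 203, 183 and 201 in the flox/flox glands, a difference of -0.13 ± 0.08 with overlap. Rpa1 was at -0.03 ± 0.09 and Rpa3 at -0.03 ± 0.09, with another probe set of Rpa3 at 0.0036. The direction of Rpa1 changed with median centring and with no scaling at all, and that of Rpa3 without some glands.

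Among polymerase and primase genes 6 of 8 were negative, with a median of -0.10. Pole, the catalytic subunit of the leading strand polymerase epsilon, read 141, 134, 164 and 133 in the flox/+ glands and 109, 116, 112 and 124 in the flox/flox glands. Its genotypes did not overlap, and the difference was -0.27 ± 0.08 (95% interval -0.45 to -0.10, adjusted p = 0.26). Prim1, the catalytic subunit of primase, read 159, 147, 155 and 151 in the flox/+ glands and 90.0, 131, 132 and 146 in the flox/flox glands. The genotypes of Prim1 were also without overlap, but only narrowly, and flox/flox replicate 1 was much lower than the rest, with a difference of -0.28 ± 0.12 (adjusted p = 0.451).

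The partners of these enzymes differed from them. Pola2, the regulatory subunit of the primase-bound polymerase alpha, read 275, 268, 287 and 264 in the flox/+ glands and 314, 283, 293 and 281 in the flox/flox glands, a positive difference of 0.09 ± 0.06 (95% interval -0.05 to 0.23) with overlap. The delta polymerase subunit Pold2 was also positive, at 0.12 ± 0.11, while the catalytic Pold1 was at -0.13 ± 0.07. The epsilon subunit Pole2 was at -0.18 ± 0.13, the primase subunit Prim2 at -0.08 ± 0.09 and the catalytic alpha subunit Pola1 at -0.07 ± 0.11. No polymerase complex therefore had all its measured subunits past an unadjusted p of 0.05.

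All 4 nucleotide supply genes were negative, and their median of -0.21 was close to that of the helicase core. Rrm1, the large subunit of ribonucleotide reductase, read 533, 474, 574 and 502 in the flox/+ glands and 372, 452, 443 and 492 in the flox/flox glands. That was 84.7% of the control level on the same scale, a difference of -0.24 ± 0.09 (adjusted p = 0.414), with flox/flox replicate 4 above flox/+ replicate 2. Its small subunit Rrm2, made in S phase, read 207, 209, 261 and 191 in the flox/+ glands and 149, 157, 208 and 192 in the flox/flox glands. The difference of Rrm2 was -0.28 ± 0.12 (adjusted p = 0.466), and again flox/flox replicates 1 and 2 were the low glands. Thymidylate synthase (Tyms) read 197, 189.7, 206 and 164 in the flox/+ glands and 156, 163, 174 and 189 in the flox/flox glands, a difference of -0.14 ± 0.08. Thymidine kinase (Tk1) was at -0.17 ± 0.09, but its dimmer second probe set was at 0.06.

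The cyclin E and E2F genes, which control the rest, had negative differences in 5 of 5, with a median of -0.18. E2f8, an atypical E2F that represses the others late in S phase, read 93.6, 111, 111 and 94.9 in the flox/+ glands and 77.4, 69.2, 98.3 and 72.3 in the flox/flox glands. Its difference was -0.32 ± 0.10 (adjusted p = 0.297), and flox/flox replicate 3 was the gland that overlapped the controls. E2f2 read 117, 137, 109 and 116 in the flox/+ glands and 111, 85.8, 108 and 95.4 in the flox/flox glands, a difference of -0.23 ± 0.09 (adjusted p = 0.426) in which flox/flox replicates 2 and 4 were low. The activator E2f1 read 412, 384, 438 and 425 in the flox/+ glands and 381, 380.0, 377 and 386 in the flox/flox glands. Values of E2f1 were tightly grouped in the flox/flox glands, 3 of the 4 controls lay above them, and the difference was -0.12 ± 0.06. The cyclin genes were at -0.02 ± 0.08 for Ccne1, whose sign changed without some glands, and -0.18 ± 0.10 for Ccne2.

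Genes that join the new strands and restore chromatin and its methylation behind the fork were all negative. Uhrf1, which recognises hemimethylated DNA left by replication, read 191, 191, 217 and 204 in the flox/+ glands and 129, 159, 192 and 192 in the flox/flox glands. Its difference was -0.25 ± 0.11 (adjusted p = 0.483), with flox/flox replicates 3 and 4 at the level of the lowest controls. The maintenance methyltransferase that it recruits, Dnmt1, read 498, 481, 469 and 469.9 in the flox/+ glands and 419, 422, 449 and 523 in the flox/flox glands, a difference of -0.08 ± 0.08 in which flox/flox replicate 4 was the highest gland. The histone chaperone subunit Chaf1b read 157, 143, 168 and 156 in the flox/+ glands and 117, 115, 124 and 166 in the flox/flox glands. Its flox/flox replicates 1, 2 and 3 lay under all controls while replicate 4 lay among them, a difference of -0.24 ± 0.11 (adjusted p = 0.467). Its partner Chaf1a was at -0.14 ± 0.08, the flap endonuclease Fen1 at -0.10 ± 0.09 and the ligase Lig1 at -0.06 ± 0.09.

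Repair genes that act at stalled forks were near 0, with a median of -0.07. Brca1 read 95.2, 82.9, 107 and 92.2 in the flox/+ glands and 79.5, 97.2, 89.5 and 90.0 in the flox/flox glands, a difference of -0.07 ± 0.08. The helicase Blm was at -0.03 ± 0.09 and the nuclease Exo1 at -0.13 ± 0.10. Blm and Lig1 turned positive without flox/flox replicate 1.

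**Figure D2:**
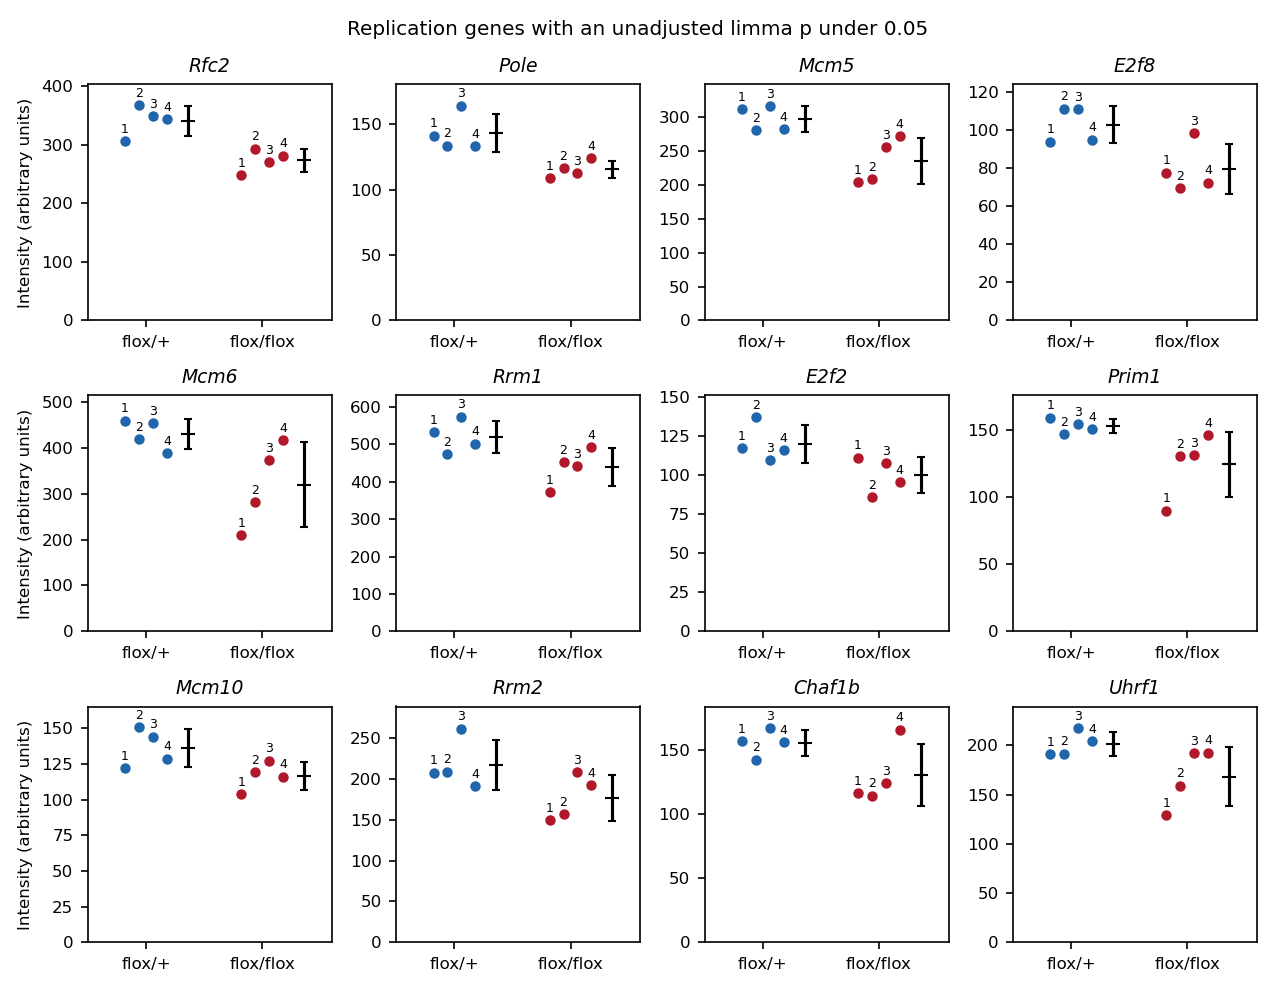
Intensity (y axis, from 0) in each gland for the 12 replication genes with an unadjusted limma p under 0.05, flox/+ in blue and flox/flox in red, with the replicate number above each point and the mean ± SD (n = 4) beside it. Rfc2, Pole, Mcm5 and Prim1 show no overlap, and flox/flox replicate 1 is the lowest flox/flox gland for most panels, as in Mcm6 at 210.1.

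The low values were spread unevenly over the glands. Flox/flox replicate 1 was the lowest of all 8 glands for 24 of the 51 genes and flox/flox replicate 2 for 12. Flox/flox replicates 3 and 4 were lowest for 1 gene each, fewer than flox/+ replicate 2 with 7 and flox/+ replicate 4 with 6. Flox/+ replicate 3 was the highest gland for 20 genes. Above their own mean over the 8 glands lay 6 genes in flox/flox replicate 1, 9 in replicate 2, 28 in replicate 3 and 33 in replicate 4. In the controls these numbers were 43, 31, 46 and 30 for replicates 1 to 4. The flox/flox glands thus did not share a low level, and replicates 3 and 4 stood beside the lower controls.

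The same was seen in the mean deviation of the group, which is the average over its genes of log2 intensity minus the gene's mean over the 8 glands. For the 51 genes it was 0.09, 0.02, 0.13 and 0.01 in flox/+ replicates 1 to 4 and -0.18, -0.11, 0.02 and 0.03 in flox/flox replicates 1 to 4. The helicase core spread more widely, at 0.15, 0.12, 0.24 and -0.04 in the controls and -0.36, -0.26, 0.02 and 0.14 in the flox/flox glands. Nucleotide supply followed it closely, at 0.12, 0.10, 0.21 and -0.02 and -0.27, -0.17, -0.00 and 0.03. In both roles flox/flox replicates 3 and 4 lay above flox/+ replicate 4.

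**Figure D3:**
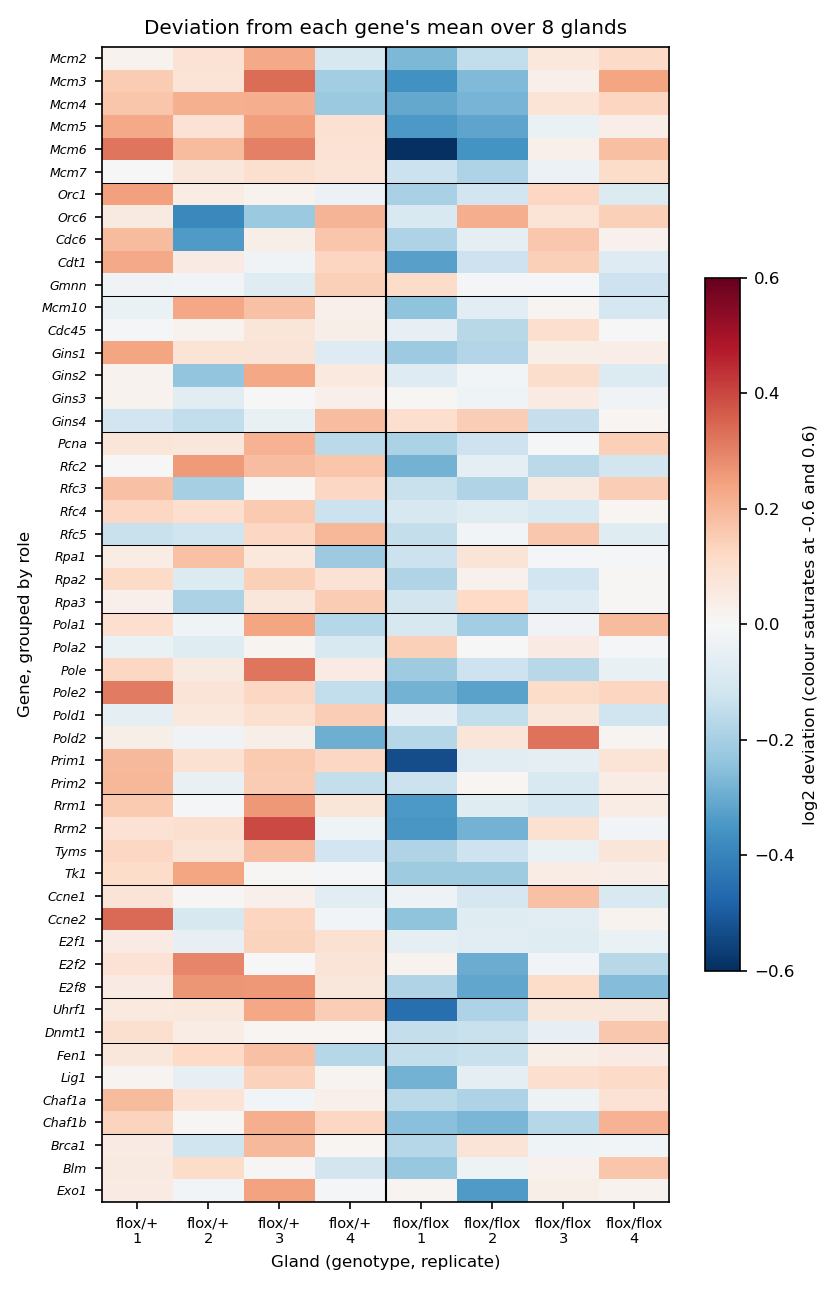
Heat map of log2 deviation from each gene's mean over 8 glands (colour, red above and blue below the mean) for 51 replication genes in rows, grouped by role, and 8 glands in columns. The helicase rows are blue in flox/flox replicates 1 and 2 and pale or red in replicates 3 and 4, and flox/flox replicate 1 has the lowest value of the row for 24 genes.

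Mitosis genes, which act after replication, had larger differences and another order of glands. All 23 measured of 24 were negative, with a median of -0.44. At an unadjusted p under 0.05 there were 18 (78.3%), against 5.46% of all genes that were lower. Lower without overlap were 14 (60.9%), against 3.16% of all genes. Kif11, the spindle motor, was the 1 gene past the test among them, at 145 ± 7.50 against 91.4 ± 4.73 (SD, n = 4; -0.59 ± 0.07, adjusted p = 0.0172). The mean deviation of the mitosis list was 0.11, 0.08, 0.28 and 0.36 in flox/+ and -0.27, -0.31, 0.00 and -0.26 in flox/flox replicates 1 to 4. In flox/flox replicate 4 the helicase genes stood at 0.14 and the mitosis genes at -0.26. In flox/+ replicate 4 the helicase genes stood at -0.04, the lowest control, and the mitosis genes at 0.36, the highest. The difference between the lists was not tested.

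**Figure D4:**
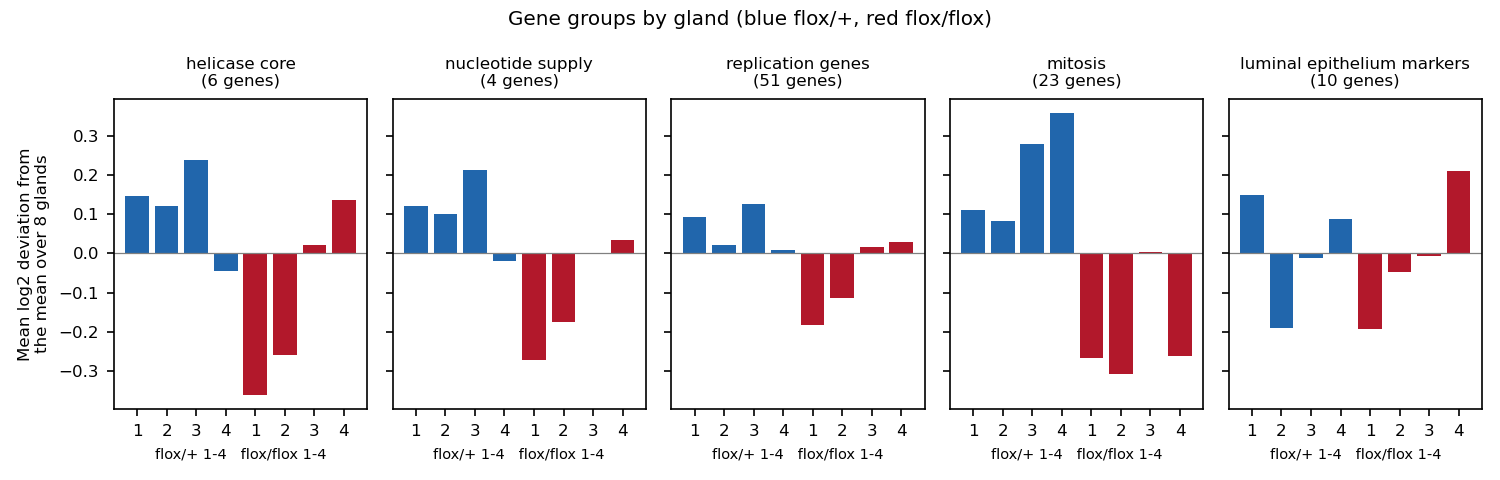
Mean log2 deviation from the mean over the 8 glands (y axis) for 5 gene groups, with a bar for each gland, blue for flox/+ and red for flox/flox replicates 1 to 4. Helicase core, nucleotide supply and all replication genes are lowest in flox/flox replicates 1 and 2, whereas mitosis genes are low in flox/flox replicates 1, 2 and 4, and luminal markers run from -0.19 to 0.21 within flox/flox.

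Other genes of the pathway, from lists written beside the 51, had a median nearer to 0. Of 92 such genes 86 were measured, 55 were negative, and the median was -0.04. None passed the test, and at an unadjusted p under 0.05 there were 8 lower (9.3%) and 2 higher, against 5.46% and 4.81% of all genes. Values were lower without overlap in 7 of the 86 (8.14%), against 7.84% of the 51 and 3.16% of all genes. In 1, E2f5, they were higher without overlap, against 2.74% of all genes. Licensing and firing genes had a median of -0.04 over 16, with 2 lower: Dbf4, the activator of the kinase that fires origins (-0.25 ± 0.07), and the checkpoint mediator Clspn (-0.21 ± 0.09). Dbf4 read 136, 128, 144 and 154 in the flox/+ glands and 121, 108, 117 and 118 in the flox/flox glands, without overlap. Of 13 genes of the fork and of strand maturation 2 were lower, the ribonuclease subunit Rnaseh2c (-0.19 ± 0.08) and the polymerase subunit Pold4 (-0.22 ± 0.09), with a median of -0.07. Values did not overlap for 3 others of these 13, all lower in flox/flox: Rfc1 (-0.08 ± 0.06), Pold3 (-0.09 ± 0.06) and Pole3 (-0.12 ± 0.06), none with an unadjusted p under 0.05. Of all genes tested 3.16% were lower without overlap. Checkpoint and repair genes had a median of -0.05 over 13 and chromatin assembly genes -0.01 over 7, with 0 under that p in either list.

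The further nucleotide supply list, mostly enzymes of base synthesis and salvage, had a median of -0.02 over 13, and its 1 gene under that p was higher, the CTP synthase gene Ctps (0.22 ± 0.08). Ctps read 220.0, 232, 216 and 185 in the flox/+ glands and 232, 265, 243 and 262 in the flox/flox glands, with flox/flox replicate 1 at the level of flox/+ replicate 2, the highest control. G1/S drivers and pocket proteins were level as a list, with a median of 0.02 over 18 and 8 negative. Within it Ccna2, the cyclin of S phase and G2, had a difference of -0.60 ± 0.11 (adjusted p = 0.122), larger than that of any of the 51, and read 243, 259, 318 and 315 in the flox/+ glands and 164, 171, 224 and 171 in the flox/flox glands. Its genotypes did not overlap, and flox/flox replicate 3 was the highest of the low group. Ccnd2, a D-type cyclin, was at -0.21 ± 0.08 and E2f5, a repressor E2F, at 0.19 ± 0.07. Among 6 CDK inhibitors, which hold the cycle in G1, 2 were lower at that p, both without overlap. They were Cdkn1c (-0.46 ± 0.11, adjusted p = 0.197) and Cdkn2a (-0.22 ± 0.07). Of all genes tested 5.46% were lower and 4.81% higher at an unadjusted p under 0.05, and 3.16% were lower without overlap. Cdkn1c read 599, 806, 738 and 734 in the flox/+ glands and 502, 437, 556 and 579.9 in the flox/flox glands. The remaining genes of these lists were not analysed here.

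**Figure D5:**
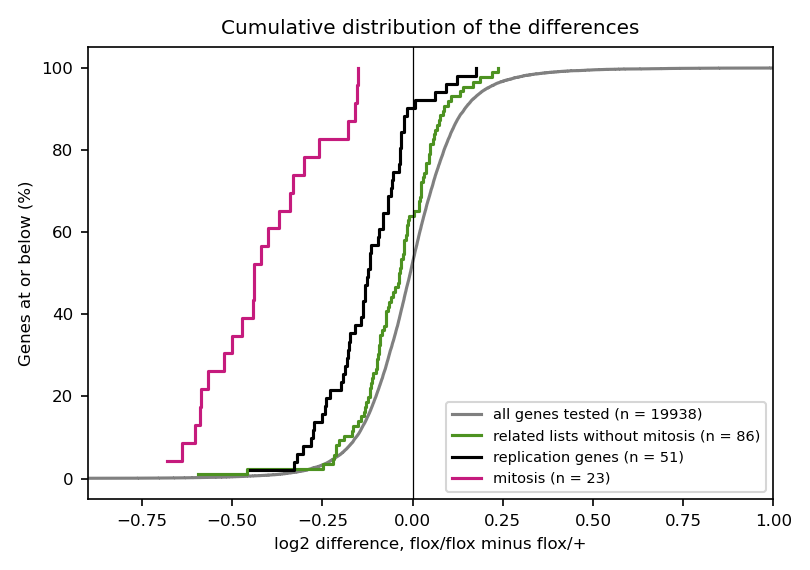
Cumulative share of genes (y axis, percent) at or below each log2 difference (flox/flox minus flox/+, x axis) for all 19938 genes tested, 86 related genes, the 51 replication genes and 23 mitosis genes. The replication genes lie left of all genes with a median of -0.13, between the related genes at -0.04 and the mitosis genes at -0.44.

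Markers of the cell types in the piece of gland included 4 genes with an unadjusted p under 0.05, all lower (Col3a1, Col1a1, Krt1 and Tnnt3), and none past the test. They were 2 of 6 fibroblast, 1 of 4 keratinocyte and 1 of 4 skeletal muscle markers. The other marker lists held 0, and of all genes tested 5.46% were lower at that p. The 10 luminal epithelium markers had a median difference of -0.03 with 0 under an unadjusted p of 0.05, and their summed intensity was 10821 to 13291 in flox/+ and 10574 to 13509 in flox/flox glands. Within flox/flox the luminal sum was lowest in replicates 1 and 2, at 10574 and 11062, and higher in 3 and 4, at 12257 and 13509, the order in which the replication genes lay. Among the controls the orders differed. There the luminal sum was lowest in flox/+ replicate 2, at 10821, and highest in flox/+ replicate 1, at 13291. The mean deviation of the replication genes was lowest in flox/+ replicate 4, at 0.01, and highest in flox/+ replicate 3, at 0.13. The mean luminal level was also used as a covariate, an alternative chosen after the values were seen. The median of the 51 genes was then -0.12, and 12 were lower at an unadjusted p under 0.05, against 5.24% of all genes. The mean luminal deviation differed between genotypes by only -0.02, so this covariate could move the genotype differences little. Its result therefore does not decide the part of the epithelial cells.

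Basal epithelium markers had a median of 0.09 over 8 and a summed intensity of 8082 to 9259 in flox/+ and 8116 to 10905 in flox/flox glands. The 6 fibroblast markers had a median of -0.27, with a summed intensity of 32263 to 41705 in flox/+ and 29078 to 35005 in flox/flox glands. Their lowest gland was flox/flox replicate 2. The list was split: Col1a1, Col1a2, Col3a1 and Lum lay at -0.27 to -0.28, whereas Pdgfra was at 0.02 and Dcn at 0.0003. Adipocyte markers were at -0.03 over 6 (summed intensity 32732 to 36638 in flox/+ and 30947 to 37385 in flox/flox glands), macrophage markers at -0.16 over 6 (3492 to 5437 in flox/+ and 3489 to 4826 in flox/flox glands) and endothelium markers at -0.01 over 5 (4097 to 4438 in flox/+ and 3836 to 5039 in flox/flox glands). T cell markers were at -0.14 over 6 (680.0 to 1368 in flox/+ and 719 to 769.7 in flox/flox glands) and B cell markers at -0.48 over 6 (563 to 3708 in flox/+ and 549 to 658 in flox/flox glands), both with their highest sum in flox/+ replicate 2. Germinal centre B cells divide fast, and their 4 markers measured were at -0.06 with a summed intensity of 393 to 454 in flox/+ and 358 to 446 in flox/flox glands. Of these Mybl1, Rgs13 and Gcsam had mean levels under the 20th percentile of all genes, as had Cd79a and Ms4a1 of B cells, Cd3d of T cells and Lor of keratinocytes. Keratinocyte markers were at -0.09 over 4 (929 to 1076 in flox/+ and 877 to 931 in flox/flox glands) and skeletal muscle markers at -0.19 over 4 (1081 to 1293 in flox/+ and 967 to 1106 in flox/flox glands). The part of the epithelial, stromal, immune and muscle cells in the values of the replication genes was not tested.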

How the data were processed

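RNA of 8 mammary glands, 4 per genotype, was measured on 8 arrays. Samples were grouped by the genotype in their titles. The authors deposited probe set intensity on a linear scale. Per the submitters' processing notes it was computed by PLIER, run in Expression Console 1.0 of Affymetrix. Background correction and scaling between arrays were not given in the sources used here, and without detection calls low values cannot be told from background. Of 35557 probe sets 21789 were paired with 1 gene symbol by the platform annotation, 1621 with several and 12147 with none. The first kind was tested, with the probe set of highest mean for each gene, which left 19938 genes. Symbols were checked by gene identifier against RefSeq genes of GRCm38.p6.

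Values were offset by 16, taken to log2 and quantile normalized over all probe sets. Printed intensities are those after normalization, back on the linear scale with the offset taken off. Differences are on the log2(intensity + 16) scale, which understates those of dim genes. A linear model per gene (lmFit and eBayes of limma 3.58.1, under R 4.3.3) gave the difference between genotypes, with Benjamini-Hochberg adjustment over all genes and 95% intervals from the same fit. The fit was tested on simulated data. The members, lists and rules were chosen with earlier results of these data known. Members under an unadjusted p of 0.05 and up to 12 others are given in every gland. Related lists are given by up to 4 genes of smallest p. Alternatives were other scalings, offsets of 1 and 64, other filters, probe set rules and limma options, the replicate number as a block, each gland left out, and a luminal covariate added later.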

Additional observations from a re-analysis of the deposited data

Results flagged for a closer look

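Within a genotype, 7 values stood far from the other 3 glands by Dixon's ratio of gap to range, at its 95% critical value, among 166 sets of 4 glands examined, of which chance would single out about 1 in 20. The helicase gene Mcm4 read 237 in flox/+ replicate 4 and 315 to 327 in the other controls. The nuclease gene Exo1 read 53.3 in flox/flox replicate 2 and 72.9 to 74.0 in the other flox/flox glands. Mitosis genes summed to an intensity of 4005 in flox/flox replicate 3 and to 3135 to 3267 in the other flox/flox glands. The chromatin assembly list summed to 3349.5 in flox/+ replicate 4 and to 3830.4 to 3882 in the other controls. Flox/+ replicate 2 held the remaining 3: B cell markers summed to 3708 there and to 563 to 630.1 in the other controls. T cell markers summed to 1368 there against 680.0 to 727. Germinal centre markers were the low case by their sum, at 393 against 444 to 454. S1pr2, the brightest of them, read 240 there and 298 to 327 in the other controls. The other markers were not low there: Rgs13 read 37.0 against 24.6 to 29.4, and Mybl1 and Gcsam lay within the range of the other controls. The mean log2 deviation of this list in flox/+ replicate 2 was 0.03.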

How the results depend on the processing

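In all 19 alternatives 0 replication genes passed the adjusted limma threshold, with 5 to 15 lower at an unadjusted p under 0.05, and 41 of the 51 kept the sign of their difference. The 12 lower at an unadjusted p under 0.05 became 7 with the values as deposited (3.51% of all genes). With 1 gland left out the fewest were 5, without flox/+ replicate 3 (4.28% of all genes) or flox/flox replicate 1 (5.42%). The most were 15, without flox/flox replicate 3 (5.72%). The 4 without overlap became 2 in the unscaled values and 2 under median centring (2.01% and 2.29% of all genes). With 1 gland left out they ranged from 4 (without flox/flox replicate 2, 4.78% of all genes) to 11 (without flox/flox replicate 4, 4.62%). Fewer glands also make overlap less likely there. The 8 genes past the threshold overall became 18 with median centring, 4 with an offset of 1, 19 with an offset of 64, 3 without the lowest 1 in 3 genes (41 of the 51 left), 1 with all probe sets and 17 with trend and robust options, and ranged from 2 to 21 with 1 gland left out (2 without flox/+ replicate 4 or flox/flox replicate 4, 21 without flox/flox replicate 3). The cause was not tested.

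The sign of 10 genes near 0 changed in some alternatives, in 20 values in all: Rpa1 was at 0.0026 in the unscaled values and 0.0011 under median centring, and with 1 gland left out the range was -0.142 to 0.0338 for Cdc6, -0.0539 to 0.0305 for Gmnn, -0.12 to 0.035 for Gins2, -0.0141 to 0.0173 for Gins3, -0.0964 to 0.0243 for Rfc5, -0.112 to 0.0192 for Rpa1, -0.10 to 0.0146 for Rpa3, -0.0857 to 0.00663 for Ccne1, -0.11 to 0.0229 for Lig1 and -0.0919 to 0.0385 for Blm. With the replicate number as a block 8 genes passed in all, 0 of them replication genes, and 11 replication genes were lower at an unadjusted p under 0.05, against 5.04% of all genes. Deviations of same-numbered glands correlated at -0.204, 0.0625, 0.209 and -0.0948 for numbers 1 to 4, so the numbers were not taken to pair the glands. Signal limits Orc1, Gins1, Exo1 and Ccne2 most, whose mean levels lay under the 20th percentile of all genes.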

Other observations

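The mitosis genes differ from the replication genes in the letters of their promoters. Of the 20 mitosis genes with a RefSeq window 1 held an E2F string, against 18 of the 41 replication genes. The CHR string TTTGAA stood in 16 of the 20 and in 8 of the 41, and CCAAT in 16 of the 20 and 27 of the 41. Among the replication genes themselves the median log2 difference was -0.09 for the 8 with TTTGAA and -0.13 for the 33 without. It was -0.12 both for the 27 with CCAAT and for the 14 without. These counts describe the windows searched and carry no test.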
